A study of Mus musculus with 10 samples.

Results

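The BMP and TGF-beta signalling genes examined here are 46 of the 22380 protein-coding genes of GENCODE M1 on NCBIM37. They were taken by name and fall into 20 ligands, 8 secreted antagonists, 10 receptors, 7 Smads and the protease Bmp1, and all 46 were found in the annotation. For each gene, each of 6 ChIP-seq peak lists was searched for peaks that reached to within 5 kb, upstream or downstream, of an annotated transcription start site (TSS), and for peaks over the annotated body from start to end. A gene with such a peak is called marked in that list.

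The cells came from fetal livers of C57Bl/6 background embryos at E14.5, either wild type (WT) or Pcl2 -/- throughout the embryo (Mtf2-null, Mtf2 being another name of Pcl2). The mutant line came from gene-targeted C57Bl/6 embryonic stem cells passed through chimeras with CD1 and was then bred on C57Bl6/J. Pro-erythroblasts were sorted as CD71+Ter119-/lo and the more mature erythroblasts as CD71+Ter119+, which the labels write as CD71+Ter119high. H3K27me3 was profiled in both fractions of both genotypes, and Mtf2 in both fractions of WT only, with 1 ChIP library per condition made from 500000 cells and an IgG library for each fraction and genotype. Because no condition had a second library, no spread between embryos could be measured and no test was made between conditions. The methods name no Cre or tissue-specific promoter, so the sorted erythroid cells had also developed in a liver without Mtf2.

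H3K27me3 is laid down by Polycomb repressive complex 2 (PRC2), mostly at CpG-rich promoters of genes that are silent in the cell, and Mtf2 is an accessory subunit that helps PRC2 find those promoters. Ligands of the TGF-beta superfamily bring type I and type II receptor kinases together, the type I receptor phosphorylates a receptor-regulated Smad, and that Smad enters the nucleus with Smad4. Secreted antagonists such as Noggin, Chordin and Follistatin hold ligands away from the receptors, while the inhibitory Smads and the pseudoreceptor Bambi dampen the signal in the cell. In the mouse, BMP4 acting through Smad5 drives the expansion of stress erythroid progenitors, and activins and TGF-beta also act on erythroid growth and maturation.

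The promoter DNA in which the mark lay is shown first, because PRC2 is known to be drawn to CpG-rich promoters and the members differ widely in CpG content. For the ligand, antagonist, receptor and Smad with the highest-scoring H3K27me3 peak in WT erythroblasts, the 250 bases upstream of a TSS near the peak summit are printed 5′ to 3′ on the gene's strand, with every CG in capitals. Those promoters are Inhbb at chr1:121318826-121319075 on the minus strand, Chrd at chr16:20732950-20733199 on the plus strand, Bmpr1a at chr14:35315874-35316123 on the minus strand and Smad6 at chr9:63869867-63870116 on the minus strand, all NCBIM37. The TSS taken is the nearest whose window touches no annotated exon, which for Bmpr1a is neither the nearest of all nor the most upstream. In all 4 genes the whole window lay inside the WT erythroblast peak. Lefty1 at chr1:182864903-182865152 on the plus strand is shown for contrast, as the unmarked member with the lowest CpG ratio at its most upstream TSS.
Inhbb: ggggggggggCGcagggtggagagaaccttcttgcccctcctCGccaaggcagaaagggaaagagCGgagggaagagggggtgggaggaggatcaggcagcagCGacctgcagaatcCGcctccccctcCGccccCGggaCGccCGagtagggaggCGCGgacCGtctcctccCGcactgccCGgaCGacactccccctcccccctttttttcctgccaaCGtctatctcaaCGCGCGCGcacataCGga
Chrd: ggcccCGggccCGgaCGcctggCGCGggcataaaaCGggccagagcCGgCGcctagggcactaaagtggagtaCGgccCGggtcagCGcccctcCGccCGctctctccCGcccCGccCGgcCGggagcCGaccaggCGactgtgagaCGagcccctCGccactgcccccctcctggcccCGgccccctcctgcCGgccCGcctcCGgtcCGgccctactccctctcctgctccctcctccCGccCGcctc
Bmpr1a: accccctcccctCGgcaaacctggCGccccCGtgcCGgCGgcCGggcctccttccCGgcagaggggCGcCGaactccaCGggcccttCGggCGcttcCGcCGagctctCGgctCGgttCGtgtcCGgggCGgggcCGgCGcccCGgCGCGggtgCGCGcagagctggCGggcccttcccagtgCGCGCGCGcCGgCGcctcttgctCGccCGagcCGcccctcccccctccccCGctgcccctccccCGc
Smad6: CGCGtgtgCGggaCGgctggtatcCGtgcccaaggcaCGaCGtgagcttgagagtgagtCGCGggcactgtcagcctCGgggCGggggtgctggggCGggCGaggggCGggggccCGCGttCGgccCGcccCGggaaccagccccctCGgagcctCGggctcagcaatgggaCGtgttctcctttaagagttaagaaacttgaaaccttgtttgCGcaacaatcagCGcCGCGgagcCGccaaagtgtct
Lefty1: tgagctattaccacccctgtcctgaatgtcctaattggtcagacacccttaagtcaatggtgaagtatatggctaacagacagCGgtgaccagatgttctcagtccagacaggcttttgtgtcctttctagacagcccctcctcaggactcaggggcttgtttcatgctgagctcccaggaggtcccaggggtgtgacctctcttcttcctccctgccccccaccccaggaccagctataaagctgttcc
The 250 bases held 21 CG in Inhbb, 28 in Chrd, 38 in Bmpr1a and 27 in Smad6, against a median of 8 over 22375 promoters cut upstream of the most upstream TSS of each gene. Of all promoters, 2.15% held at least as many CG as Bmpr1a and 19% at least as many as Inhbb. The Bmpr1a window lay inside the annotated gene, so its share compares unlike positions. The Lefty1 promoter held 1 CG, and 16.6% of promoters held as few. Lefty1 was picked for its low CpG ratio, so it does not stand for the 24 unmarked members. Of those, 15 had a CpG island-like TSS as defined below.

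Marking near a TSS was concentrated in WT erythroblasts. There 22 of the 46 members (47.8%) had an H3K27me3 peak within 5 kb of a TSS, beside 11.5% of all protein-coding genes. In WT pro-erythroblasts 5 members (10.9%) had one, beside 3.28% of all genes. In Mtf2-null pro-erythroblasts 2 members (4.35%) had one, beside 1.27%. In Mtf2-null erythroblasts 0 of 46 members had one, beside 1.63%. Mtf2 itself had a peak within 5 kb of a TSS at 0 of 46 members in both fractions, beside 8.44% of all genes in pro-erythroblasts and 1.51% in erythroblasts.

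**Figure D1:**
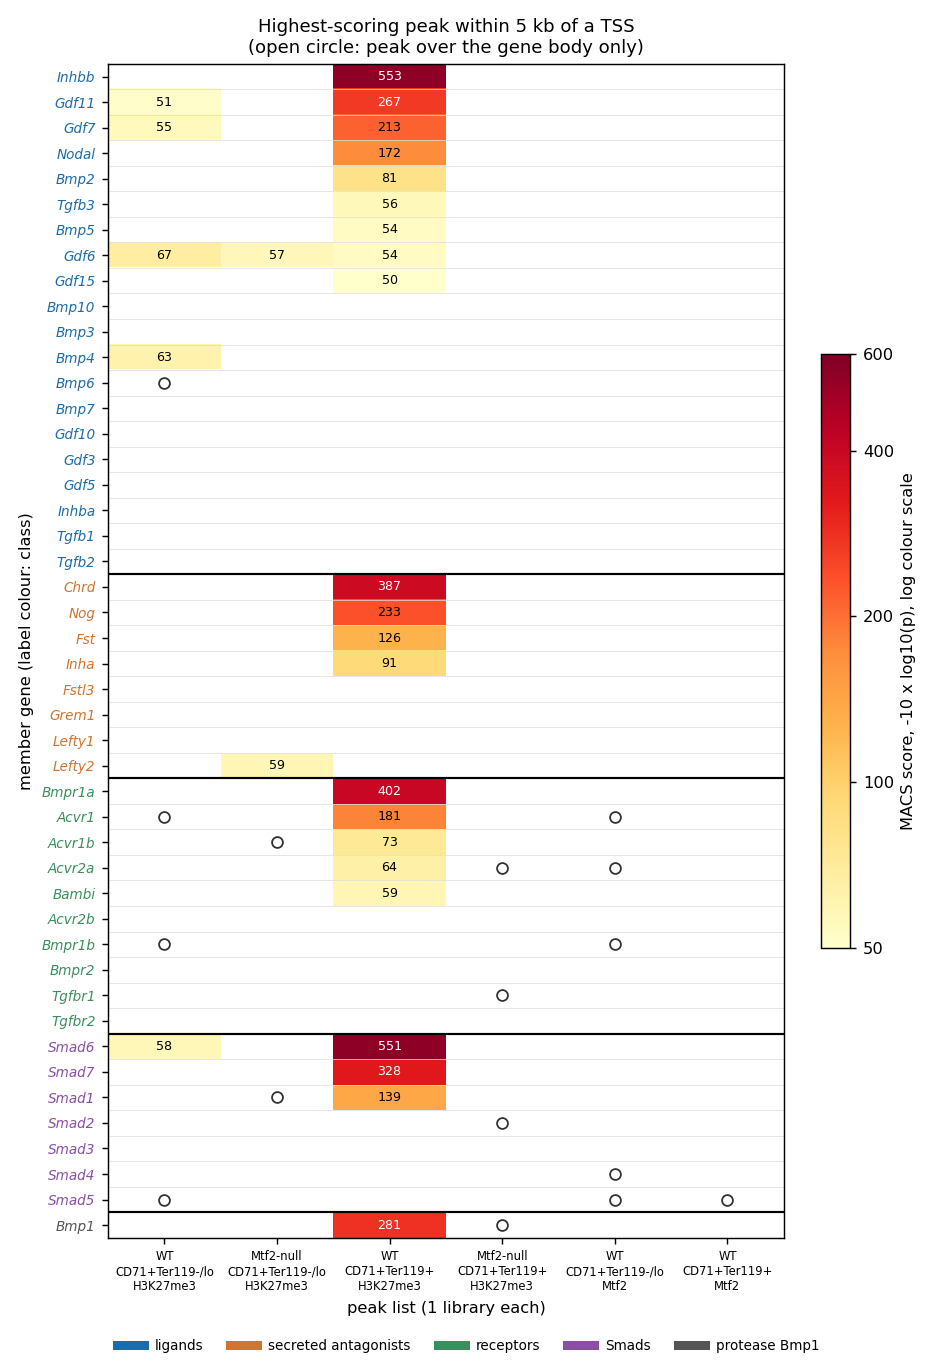
Each row is a member gene, grouped by class and ordered by score, and each column is 1 peak list; colour and number give the highest MACS score of a peak within 5 kb of a TSS on a log colour scale, and an open circle marks a peak over the gene body only. The WT erythroblast column holds 22 filled cells, and the Mtf2-null erythroblast and both Mtf2 columns hold open circles alone.

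With all peaks of the list, the 4 classes differed little in how often they were marked in WT erythroblasts. The ligands had a peak near a TSS at 9 of 20 genes (45%), the secreted antagonists at 4 of 8 (50%), the receptors at 5 of 10 (50%) and the Smads at 3 of 7 (42.9%), and Bmp1 had one as well. One gene more or fewer moves the share by 5 percentage points among the ligands and by 14.3 among the Smads, so these shares could not be ranked. With peaks of a score of at least 100 only, the counts were less even: 4 of 20 ligands, 3 of 8 antagonists, 2 of 10 receptors, 3 of 7 Smads and Bmp1. In WT pro-erythroblasts the marked members were 4 ligands and 1 Smad, with 0 antagonists and 0 receptors.

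**Figure D2:**
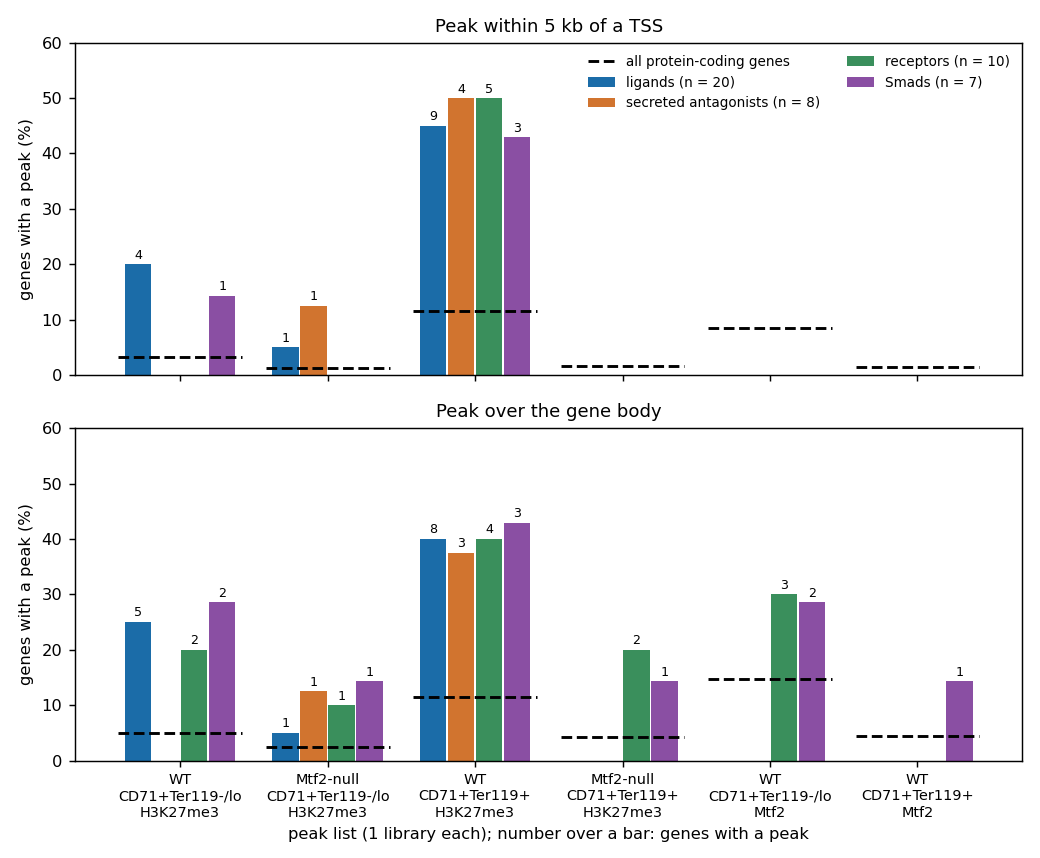
Bars give the percent of genes of each class marked near a TSS, that is within 5 kb (top), or over the gene body (bottom) in each of the 6 lists, with the number of genes above each bar; dashed lines give the percent of all protein-coding genes. In WT erythroblasts all 4 classes stand between 42.9% and 50% near the TSS, above the 11.5% of all genes.

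The libraries were of unequal depth. The 6 ChIP libraries held 15669899 to 67169672 unique tags and gave 1407 to 28918 peaks, and the Mtf2-null libraries were 2.23 times (erythroblasts) and 1.95 times (pro-erythroblasts) as deep as WT. Each list holds only peaks past the caller's cutoff, so a missing peak is the absence of a call and not a measured absence of the mark. Every peak of the Mtf2-null pro-erythroblast list had an estimated false discovery rate (FDR) of 100%, against a median of 14.7% in WT erythroblasts and 0.28% in Mtf2-null erythroblasts. None of 10 erythroid marker genes had a peak within 5 kb of a TSS in any list, while the lymphoid gene Pax5 and the endothelial gene Kdr had one in WT erythroblasts, the macrophage gene Emr1 in Mtf2-null pro-erythroblasts and the hepatocyte gene Afp in the pro-erythroblast Mtf2 list. Peaks do not measure expression, so the sorted identity was not otherwise checked.

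Of the 30 distinct WT erythroblast peaks near members, most sat on a start of the gene. They had been chosen for lying within 5 kb of a TSS, so closeness to a start follows in part from that choice. At a window of 1 kb, 21 of the 22 members stayed marked, beside 2085 of the 2581 marked genes. The summit of 20 peaks lay within 1 kb of a TSS of the member. Over all 30 the median distance was 0.309 kb, with 20 summits downstream and 10 upstream. By annotation, 7 summits were in UTR exons, 6 in coding exons, 8 in introns and 9 upstream of the gene, and 18 peaks covered a TSS of the member. The peaks were 0.625 to 4.31 kb long (median 1.36 kb), held 21 to 245 tags (median 62) and had a fold enrichment over IgG of 5.13 to 25.7 (median 9.41). Their scores, the caller's p on a negative log scale, higher for stronger peaks, ran from 50.5 to 553 (median 86.4). In 28 of the 30 peaks the nearest TSS of any protein-coding gene was that of the member. The exceptions were the single peaks of Inha, nearest to Obsl1, and Tgfb3, nearest to 1700019E19Rik.

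**Figure D3:**
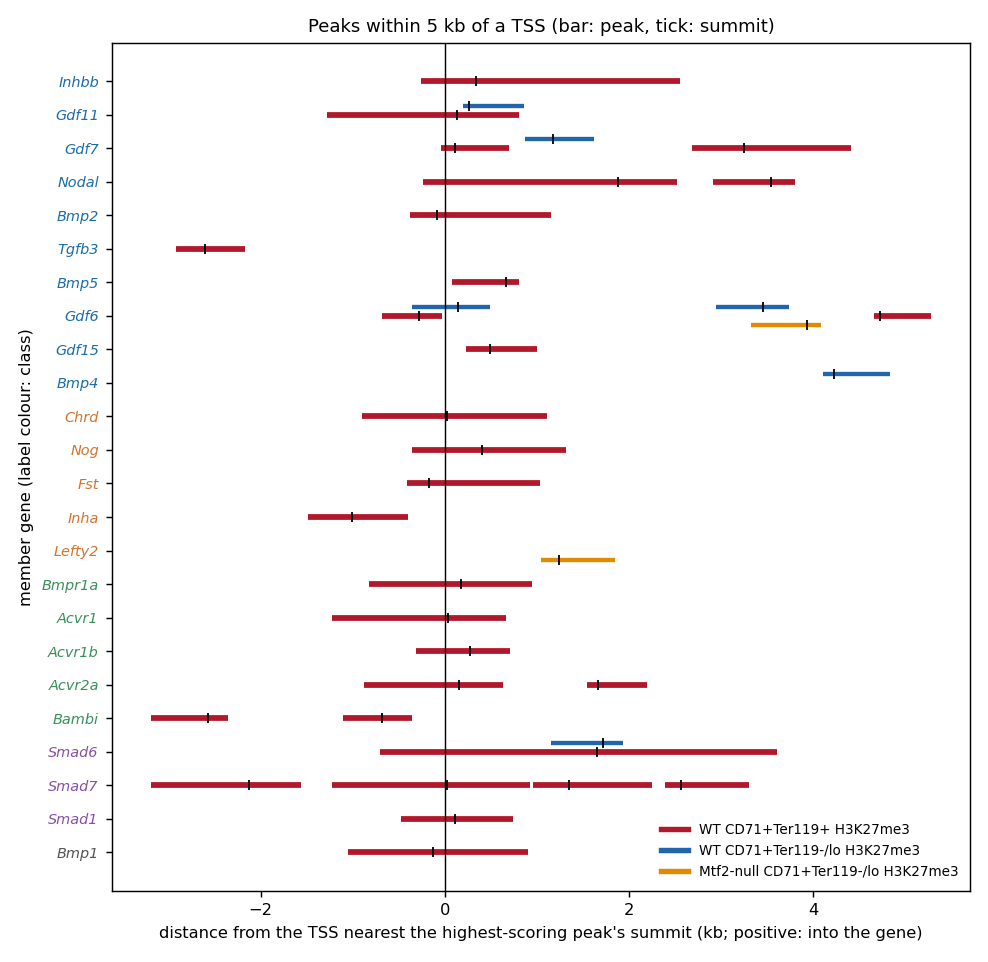
Each bar is a peak within 5 kb of a TSS and each tick its summit, drawn by distance in kb from the TSS nearest the summit of the member's highest-scoring peak, positive into the gene, with colours for the 3 lists that held such peaks. Most WT erythroblast bars cross 0, while the Mtf2-null pro-erythroblast bars at Gdf6 and Lefty2 lie wholly inside the gene.

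Among the ligands, Inhbb, the beta B subunit of activin and inhibin, carried the highest-scoring peak of all members. It spanned chr1:121316274-121319089, from just upstream of the TSS over the first exon, with 155 tags (95% exact Poisson interval 131.6 to 181.4, counting error only), a fold enrichment of 12.35 and a score of 553. It ranked 28 by score among the 4490 peaks of WT erythroblasts. The other activin beta subunit gene of the set, Inhba, had no peak near a TSS in any list.

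Gdf11, an activin-like ligand that patterns the vertebral column, was marked in both WT fractions. The erythroblast peak at chr10:128327972-128330053 had a score of 267, 97 tags and the highest fold enrichment of the member peaks near a TSS, 25.7. The pro-erythroblast peak at chr10:128327914-128328579 lay over the same coding exon, shared 608 bases with it and had 16 tags and a score of 50.7. The erythroblast value was higher on each measure, although that library also held more unique tags (30054186 against 18945784).

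Gdf7, a BMP-type ligand of the dorsal neural tube, had a pair of erythroblast peaks. The stronger, at chr12:8304348-8306079, lay over a coding exon 3.25 kb into the gene with a score of 213 and 74 tags, and the weaker covered the TSS with a score of 73.5 and 30 tags. In pro-erythroblasts another peak, with a score of 55.3 and 18 tags, lay between them in the intron and overlapped neither. The peaks therefore covered different stretches of a gene 4.02 kb long.

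Gdf6, a ligand of joint and eye development, was the single member with a peak near a TSS in 3 lists. In WT pro-erythroblasts a peak of 23 tags and a score of 67.1 covered the TSS, and another of 20 tags and a score of 50.9 lay 3.46 kb into the gene. In Mtf2-null pro-erythroblasts 1 peak was called near the TSS, at chr4:9774842-9775607 in the intron, with 28 tags, a score of 57.05 and an FDR of 100%. It shared 418 bases with the intronic WT peak, with summits 480 bases apart. No Mtf2-null peak was called at the TSS itself. Over the whole lists, 0.300% of WT pro-erythroblast H3K27me3 peaks overlapped a Mtf2-null pro-erythroblast one, and 1.07% the reverse. In WT erythroblasts both Gdf6 peaks were weak, with 21 tags each and scores of 50.9 and 53.9.

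The remaining marked ligands were Nodal, Bmp2, Tgfb3, Bmp5 and Gdf15 in WT erythroblasts and Bmp4 in WT pro-erythroblasts. Nodal, which sets up the mesoderm and the left-right axis, had a peak of 106 tags and a score of 172 across its TSS and a second of 32 tags and a score of 81.4 in the intron. Bmp2, a bone and heart inducing ligand, had a peak over its TSS with 65 tags and a score of 80.9. The peaks of Tgfb3, Bmp5 and Gdf15, a ligand of the stress response, held 23 to 24 tags, had scores of 50.5 to 56.2 and covered no TSS. The Bmp5 peak lay near an internal TSS at chr9:75675829. The most upstream Bmp5 TSS, at chr9:75623171, had no WT erythroblast peak within 5 kb.

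Bmp4, the ligand tied to stress erythropoiesis, was the single member marked near a TSS in WT pro-erythroblasts and not in WT erythroblasts. Its peak at chr14:47005377-47006108 lay in an intron, 4.23 kb from the nearest TSS at its summit, with 19 tags, a score of 62.8 and an FDR of 9.50%. In WT erythroblasts the nearest peak was 494 kb from a Bmp4 TSS. The peak lay 4.10 kb from the TSS at its near edge, just inside the 5 kb window. The other ligands without a WT erythroblast peak near a TSS were Bmp3, Bmp6, Bmp7, Bmp10, Gdf3, Gdf5, Gdf10, Inhba, Tgfb1 and Tgfb2.

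Among the secreted antagonists, the BMP-binding proteins Chordin and Noggin were marked in WT erythroblasts, and the related BMP antagonist Gremlin (Grem1) was not. The Chrd peak, chr16:20732297-20734306, covered the TSS with 108 tags (88.6 to 130.4), a fold enrichment of 16.8 and a score of 387. Nog is a single short gene of 1.92 kb, and its peak at chr11:89162563-89164229 covered the TSS with 88 tags (70.6 to 108.4) and a score of 233. In the other 5 lists neither gene had a peak near a TSS or over its body.

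The activin-binding antagonist Fst (Follistatin) had a peak over its TSS with 63 tags and a score of 126, and its relative Fstl3 had none. Inha, the subunit that turns an activin into an inhibin, had a peak 1.01 kb upstream at its summit with 38 tags and a score of 91.4, the one nearest to Obsl1. The Nodal inhibitors Lefty1 and Lefty2 had no WT peak near a TSS. Lefty2 had a peak in Mtf2-null pro-erythroblasts, at chr1:182825628-182826436 in the intron, with 35 tags, a fold enrichment of 4.93 and a score of 59.5. That peak had an FDR of 100% like all of its list, and 39.9% G + C around its summit.

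The marked receptors in WT erythroblasts were the type I receptors Bmpr1a, Acvr1 and Acvr1b, the type II receptor Acvr2a and the pseudoreceptor Bambi. Bmpr1a, a main type I receptor for BMP2 and BMP4, had a peak at chr14:35314764-35316541 with 109 tags (89.5 to 131.5), a fold enrichment of 16.2 and a score of 402. The peak covered TSSs of 3 of the gene's annotated starts, with the summit in an intron 0.18 kb downstream. Acvr1, which carries BMP signals into Smad1 and Smad5, had a peak over its TSS with 73 tags, a fold enrichment of 18 and a score of 181.

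Acvr1b, a type I receptor for activin and Nodal, had a weaker peak over its TSS with 33 tags and a score of 72.8. Acvr2a, a type II receptor for activins, had 70 tags and a score of 64.5 over its TSS and 21 tags and a score of 51.9 in the intron, and its fold enrichment of 5.13 at the TSS was the lowest of the 30 peaks. Bambi had a pair of peaks upstream, with scores of 58.6 and 51.9, that did not reach its TSS. Tgfbr1, Tgfbr2, Acvr2b, Bmpr1b and Bmpr2 had no peak near a TSS in any list, so neither TGF-beta receptor kinase gene was marked there.

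Of the Smads, both inhibitory Smads were marked in WT erythroblasts, and 1 of the 5 others. Smad6, which blocks BMP signalling, had the longest WT erythroblast H3K27me3 peak of the members, 4.31 kb at chr9:63866259-63870569, with 245 tags (215.3 to 277.7), the most of any such peak, and a score of 551. In WT pro-erythroblasts a peak of 0.787 kb with 19 tags and a score of 57.7 lay inside that stretch, its summit 64 bases from the erythroblast summit. Smad7, which blocks both branches, carried 4 neighbouring erythroblast peaks between chr18:75523992 and 75530487 with 61, 132, 77 and 37 tags and scores of 74.2, 328, 231 and 61.9. Smad7 had no peak near a TSS in pro-erythroblasts, where the nearest WT peak was 755 kb away.

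Among the signal-carrying Smads, Smad1 had a peak over its TSS in WT erythroblasts, at chr8:81922673-81923895, with 58 tags (44.0 to 75.0) and a score of 139. Smad2, Smad3, Smad5 and the common Smad4 had no peak near a TSS in any list. Bmp1, which despite its name is a metalloprotease that cleaves procollagen and Chordin, had a peak over its TSS with 95 tags (76.9 to 116.1), a score of 281 and the lowest FDR of the 30 peaks, 1.80%.

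Comparing the genotypes in erythroblasts, 22 of 22 members marked in WT had no Mtf2-null peak near a TSS, beside 98.8% of all 2581 marked genes. With a window of 10 kb it was 20 of 22. In pro-erythroblasts 4 of 5 had none, beside 94.7% of 734, and Gdf6 was the exception. In erythroblasts the share is close to that of all marked genes. The best WT erythroblast peaks of the 22 members held 21 to 245 tags, which at the depth of the Mtf2-null library would come to 46.9 to 547.6 tags. The smallest peak of the Mtf2-null list held 35 tags, but a tag count does not set a call. The Mtf2-null erythroblast peak at Acvr2a held 146 tags with a score of 50.1, close to the cutoff. Whether peaks of the scaled size would have been called was not tested. The nearest Mtf2-null erythroblast peak to a marked member lay 7.16 kb away, at Inhbb, and the median distance was 179 kb. The IgG libraries also differed in depth between the genotypes, and their part in the lost calls was not tested.

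**Figure D4:**
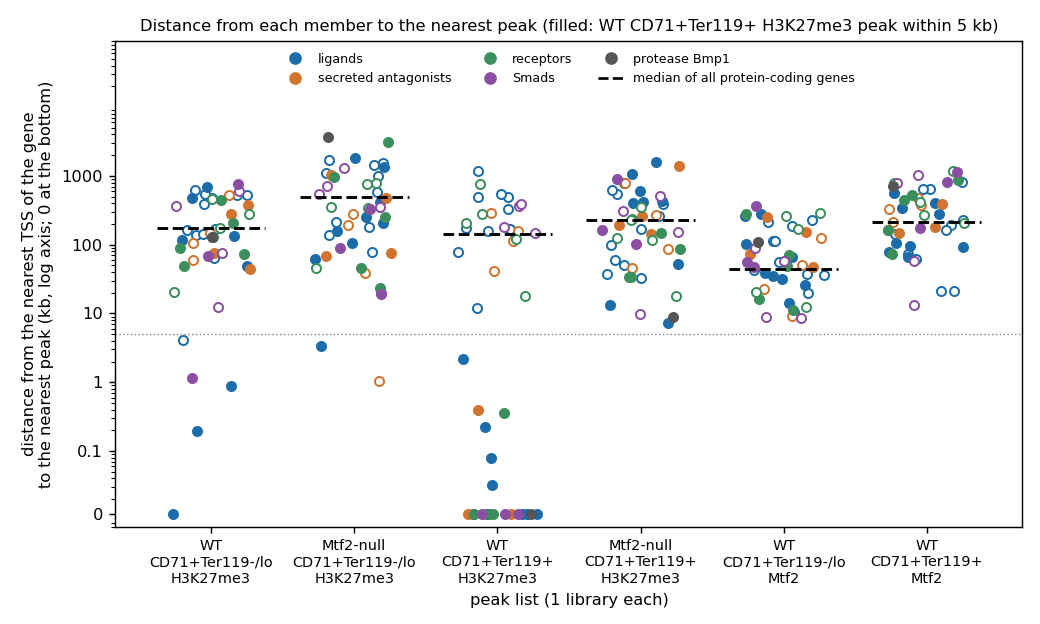
Each point is a member gene, at the distance in kb (log axis, with 0 at the bottom) from its nearest TSS to the nearest peak of each list; colours give the class, filled points are the 22 members marked in WT erythroblasts, dashed lines the median of all protein-coding genes and the dotted line the 5 kb limit. The filled points lie below 5 kb in WT erythroblasts and between 7.16 and 1576 kb in Mtf2-null erythroblasts.

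By the nearest WT erythroblast peak of each member, the marked member closest to the 5 kb limit was Tgfb3, at 2.17 kb from the TSS, and the nearest peak to an unmarked member was 12 kb away, at Tgfb1. The 24 unmarked members had a median distance of 177 kb, against 143 kb over all protein-coding genes. Over all 46 members the median distance to a WT erythroblast peak was 15.1 kb. In the other lists the members' medians were 140 kb for WT pro-erythroblast H3K27me3 (176 kb over all genes), 305 kb for Mtf2-null pro-erythroblast H3K27me3 (497 kb), 166 kb for Mtf2-null erythroblast H3K27me3 (226 kb), 56.3 kb for pro-erythroblast Mtf2 (44.5 kb) and 249 kb for erythroblast Mtf2 (216 kb).

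Between the WT fractions, 4 members were marked near a TSS in both (Gdf6, Gdf7, Gdf11 and Smad6), 18 in erythroblasts alone and Bmp4 in pro-erythroblasts alone. At Gdf6, Gdf11 and Smad6 a peak of one fraction overlapped a peak of the other, and at Gdf7 none did. Over the whole lists, 5.81% of pro-erythroblast peaks overlapped an erythroblast peak and 6.30% the reverse. The pro-erythroblast peaks at these members held 16 to 23 tags and none reached a score of 100, and the pro-erythroblast library held fewer unique tags. The part of depth in the 18 erythroblast-only members was not tested.

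Over the gene body, 9 members (19.6%) had a WT pro-erythroblast H3K27me3 peak beside 5.0% of all genes, 19 members (41.3%) a WT erythroblast peak beside 11.5%, 4 members (8.70%) a Mtf2-null pro-erythroblast peak beside 2.37% and 4 members (8.70%) a Mtf2-null erythroblast peak beside 4.22%. Mtf2 had a peak over 5 members (10.9%) in pro-erythroblasts beside 14.8%, and over 1 (2.17%) in erythroblasts beside 4.38%. A longer gene has more room for a peak, and the members had a median length of 20.2 kb against 15.4 kb for all genes. The receptors, with a median of 90.1 kb, and the Smads, with 64.2 kb, were longer than the ligands (11.8 kb) and the antagonists (5.68 kb).

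The Mtf2 peaks of the members all lay in introns of receptors and Smads, away from any TSS. In pro-erythroblasts these were Acvr1, Acvr2a, Bmpr1b, Smad4 and Smad5. At Smad5, the Smad of the BMP4 stress pathway, the Mtf2 peak spanned chr13:56814050-56821650 with 363 tags (326.6 to 402.3), a fold enrichment of 6.07 and a score of 440. Smad4 had an intronic Mtf2 peak of 173 tags and a score of 402 beside a smaller one of 54 tags. Bmpr1b, a type I BMP receptor of cartilage, had one at chr3:141665519-141668307 with 140 tags and a score of 365. In erythroblasts the single Mtf2 peak, of 25 tags and a score of 67.0, lay inside the Smad5 stretch.

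Several of these intronic sites were shared between antibodies. At Acvr1, Bmpr1b and Smad5 a WT pro-erythroblast H3K27me3 peak overlapped a pro-erythroblast Mtf2 peak, by 882, 982 and 596 bases. Those H3K27me3 peaks held 32, 28 and 16 tags and had scores of 50.9, 70.6 and 50.4. The other 7 of the 10 WT pro-erythroblast member peaks, among them all 6 near a TSS, overlapped no Mtf2 peak, while over the whole list 58.9% did. In turn 3 of the 7 Mtf2 member peaks overlapped such an H3K27me3 peak, against 9.50% of the whole Mtf2 list. Both WT lists of a fraction were called against the same IgG library, and its part in these shared sites was not tested.

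The Mtf2-null peaks over members were likewise intronic. In erythroblasts they were at Tgfbr1 (42 tags), Acvr2a (146 tags), Smad2 (89 tags) and Bmp1 (41 tags), with scores of 50.1 to 54.8, close to the cutoff. The Acvr2a peak at chr2:48709516-48711974 overlapped the pro-erythroblast Mtf2 peak of WT cells by 1692 bases, with summits 27 bases apart, and 13.6% of the Mtf2-null erythroblast list overlapped that Mtf2 list. In pro-erythroblasts the peaks away from a TSS were at Acvr1b (26 tags) and Smad1 (32 tags). The Smad1 peak overlapped a WT erythroblast peak in the same intron by 935 bases, again with summits 27 bases apart. None of the 4 Mtf2-null erythroblast peaks overlapped a WT H3K27me3 peak, and over the whole list 0.484% overlapped one of WT erythroblasts and 0.794% one of WT pro-erythroblasts.

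Base composition differed between the sets of peaks at members. It was not read for the other peaks of the lists, so these counts have no share over all peaks beside them. A TSS or summit is called island-like when the 1 kb around it has at least 50% G + C and a CpG ratio, observed over expected, of at least 0.6. Of the 30 WT erythroblast peaks near members, 20 had an island-like summit, with a median of 68.0% G + C. Of the 8 Mtf2-null peaks at members, near or over the gene, 0 did, and their G + C was 36.1% to 48.8%. None of the 7 pro-erythroblast Mtf2 peaks at members was island-like either, with a median of 49.4% G + C. Among the 6 WT pro-erythroblast peaks near a member TSS, 4 were island-like. These sets also differed in position, since most of the Mtf2-null peaks and all of the Mtf2 peaks lay away from a TSS. Of the WT peaks away from a TSS, 0 of 2 in erythroblasts and 0 of 4 in pro-erythroblasts were island-like. Of the 2 Mtf2-null peaks near a TSS, 0 were. The part of position in the difference was not tested.

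At the level of genes, 33 of 46 members (71.7%) had at least 1 island-like TSS, against 48.9% of all protein-coding genes. Of those 33, 18 (54.5%) were marked in WT erythroblasts, against 18.8% of all genes with such a TSS. Of the 13 members without one, 4 were marked (30.8%, Nodal, Inha, Bmp5 and Gdf15), against 4.62% of all such genes. The Inha peak, nearest to Obsl1, had an island-like summit with 71.5% G + C. The peaks of Bmp5 and Gdf15 had scores of 53.9 and 50.5, close to the cutoff. All 10 receptors and all 7 Smads had an island-like TSS. At the most upstream TSS the CpG ratio was 0.839 to 1.15 in the marked receptors and 0.642 to 0.887 in the unmarked, and 0.850 to 0.960 in the marked Smads and 0.834 to 1.02 in the unmarked, so the ranges overlapped in both classes. The 15 members with an island-like TSS and no WT erythroblast peak were the ligands Bmp6, Bmp7, Gdf10, Tgfb1 and Tgfb2, the antagonist Grem1, the receptors Acvr2b, Bmpr1b, Bmpr2, Tgfbr1 and Tgfbr2, and Smad2, Smad3, Smad4 and Smad5.

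**Figure D5:**
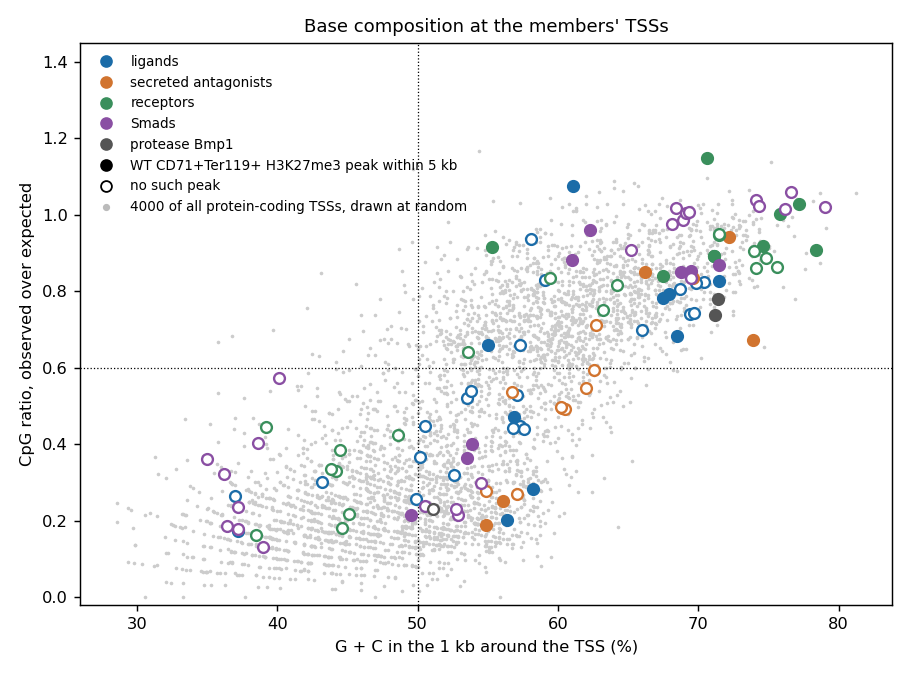
Each point is an annotated TSS of a member, by percent G + C and CpG ratio in the 1 kb around it, filled where a WT erythroblast H3K27me3 peak lay within 5 kb; grey points are a random draw of all protein-coding TSSs and dotted lines the island-like limits of 50% and 0.6. Of 35 member TSSs with a peak 26 (74.3%) lie in the upper right field, and of 74 without one 32 (43.2%).

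Counting each annotated TSS, 26 of 35 member TSSs with a WT erythroblast peak were island-like (74.3%) and 32 of 74 without one (43.2%), beside 67.8% and 36.4% of all protein-coding TSSs. The difference in the members was thus of the size seen over all genes. TSSs of 1 gene lie close together and are not independent.

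In the other genes of the pathway, a list of 46 holding further ligands, extracellular regulators, co-receptors and nuclear partners, 15 (32.6%) had a WT erythroblast H3K27me3 peak near a TSS, beside 11.5% of all genes. All 4 latent TGF-beta binding proteins were among them, which hold the secreted ligand in the matrix, and Ltbp4 had the highest score of these, 226 with 116 tags. Nbl1, Bmper and Sost, which encode secreted proteins, had scores of 215, 119 and 86.9. The highest score of the list, 290 with 113 tags, was at Zfyve9, which presents Smads to the receptor. Of the 4 Id genes, targets that BMP induces through Smad1 and Smad5, Id2 and Id3 were marked, with scores of up to 72.05 and 115, and Id1 and Id4 were not.

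None of the 46 other pathway genes had a Mtf2-null erythroblast peak near a TSS, beside 1.63% of all genes. In WT pro-erythroblasts Amh, Ltbp2, Ltbp4 and Rgma were marked (3.28% of all genes), and in Mtf2-null pro-erythroblasts Amhr2 (1.27%). Mtf2 peaks near a TSS were found in pro-erythroblasts at Bmp8b, Inhbc and Ltbp2, with scores of 67.9, 51.5 and 52.7, beside 8.44% of all genes. In erythroblasts Mtf2 had a peak at none, beside 1.51%.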

How the data were processed

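ChIP-seq of H3K27me3 was available for WT and Mtf2-null cells of both fractions, and of Mtf2 for WT cells of both fractions, as 1 peak list per condition. The methods name replicates of 2 for these experiments, but the labels give 1 library per condition, and pooling is not stated. Per the methods and the processing notes, the authors aligned reads to mm9 with Bowtie2 2.2.3 and called peaks with MACS 1.3.7 against the IgG library of the same fraction and genotype, with a p cutoff of 1e-05 per the file headers. The deposited tag count is the number of reads that MACS placed in a peak, not normalised for depth. Fold enrichment, as deposited, is a ratio of tags in the peak to the local background expected from IgG. The deposited score is the authors' log-scaled p from MACS. FDR was deposited in percent, from MACS calls made with the roles of both libraries swapped. WT H3K27me3 and Mtf2 were called against the same IgG library in each fraction. The opening line of the series design names H3K4me3, while the labels name H3K27me3, which was used here.

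Peaks were joined to GENCODE M1 genes on NCBIM37, the assembly of mm9, by an overlap of at least 1 base with the 5 kb around a TSS or with the gene body, and coordinates are 1-based. The join was tested on simulated intervals. Poisson intervals are exact at 95% and cover counting error only, since reads copied by PCR are not independent molecules. CpG ratios were read from the NCBIM37 genome in 1 kb around each TSS or summit. Promoter sequences were cut from the same genome, because the RefSeq promoter table provided is on another build. One promoter sequence is not reported here. The members, classes and lists were chosen with earlier results of these data known. Members with a peak near a TSS are described with values, those with the 3 highest WT erythroblast scores of a class or with a Mtf2-null or Mtf2 peak in full, the others by range or name. As alternatives, peaks were kept from a score of 100 or up to an FDR of 5%, lists were cut to the 1407 best peaks, other windows were used, the summit replaced the peak, and transcripts were limited to protein-coding ones. Lefty1, Lefty2, Inha and Bmp1 were also counted with the ligands. The steps ran in Python 3.11.15 with pandas 2.3.3, numpy 2.4.6, scipy 1.17.1 and matplotlib 3.10.9.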

Additional observations from a re-analysis of the deposited data

How the results depend on the processing

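The counts of marked members depended on how strict the list was. With a score of at least 100, 13 members were marked near a TSS in WT erythroblasts in place of 22, beside 5.54% of all genes, and 13 of 13 had no Mtf2-null peak there. With an FDR of at most 5% these counts were 13 and 13, beside 5.48%, and with every list cut to its 1407 best peaks again 13 and 13, beside 5.84%. In WT pro-erythroblasts 0 members were left near a TSS and 0 over the gene body at a score of 100 or an FDR of 5%, and 1 and 2 in lists of equal size, so that the members losing a peak numbered 0 under all 3. In Mtf2-null pro-erythroblasts both counts fell to 0 at a score of 100 or an FDR of 5%. Over the gene body, Mtf2-null erythroblasts had 0 members at a score of 100 or in lists of equal size, pro-erythroblast Mtf2 had 3 at a score of 100 and 0 in lists of equal size, and erythroblast Mtf2 had 0 under all 3. With a TSS window of 1 kb, 3 members were marked in WT pro-erythroblasts and 0 in Mtf2-null pro-erythroblasts. With a window of 10 kb, 3 members were marked in Mtf2-null erythroblasts and 3 in the pro-erythroblast Mtf2 list. At that width 20 of 22 members marked in WT erythroblasts had no Mtf2-null peak in the window. The Mtf2-null peaks that came into the wider window lay at other sites. Of the 32 WT erythroblast peaks near or over members, 0 overlapped a Mtf2-null erythroblast peak. Fewer peaks, or a wider window, produce these changes by construction. At an FDR of 5% the WT pro-erythroblast list kept 1 of its 4992 peaks. The Mtf2-null pro-erythroblast and the erythroblast Mtf2 lists kept 0, so the counts of 0 there are not a property of the members. At a score of 100 these 3 lists kept 216, 17 and 365 peaks. Taking the summit, protein-coding transcripts only or a gene with flanks moved no count over all members by more than 1.5 times. Counting Lefty1, Lefty2, Inha and Bmp1 as ligands gave 11 marked ligands near a TSS in WT erythroblasts in place of 9. In Mtf2-null pro-erythroblasts it gave 2 in place of 1. No paired analysis was possible because each condition had 1 library and the counts come from no test, and no replicate could be left out.

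Each list was thresholded at its own depth against its own IgG library, so counts of marked members are comparable between lists only within that limit. A peak under the cutoff is not seen, weak peaks of about 20 tags rest on few reads, and no value here carries an error between embryos.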
